A study of Homo sapiens with 2 samples.

Results

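The early-numbered microRNA precursors are the rows of the non-coding RNA table of irradiated and unirradiated A375 cells that are classed as miRNA and named MIRLET7, or MIR with a number below 1000, leaving out MIR25 and MIR93. They are 107 of 3576 rows. The rule uses names only and no measured value, but it was chosen with earlier results of these data known. A375 is an established human melanoma line, here recorded as wild type. The labels give 1 library after 8 Gy of ionizing radiation and 1 library at 0 Gy. The authors' deposited table divides 1 library by the other and gives each RNA a log2 fold change, with p and q beside it. Which of them is the irradiated library is shown by no label. They are therefore named by their place in the ratio, numerator library and denominator library, and a higher value says nothing about the effect of radiation.

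MicroRNAs are cut from long primary transcripts. The enzyme Drosha frees a hairpin precursor in the nucleus, Dicer trims it in the cytoplasm to a short mature strand, and Argonaute proteins use that strand to repress messenger RNAs. The bases near the 5′ end of the mature strand, called the seed, select the targets, so microRNAs with the same seed form a family. Numbers in the names follow the order of discovery in broad terms, and low numbers include let-7 and many conserved families studied in cancer. All 107 rows are annotated as precursors, and the values describe reads over the hairpin, not the mature strands. Many precursors lie inside host genes, and whether the counting used strand is not given. Reads of host RNA, or of an antisense gene, may therefore be counted as precursor reads, and cannot be separated from them. Such host RNA may be unspliced, or also spliced where the hairpin overlaps an exon.

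The sequences below are those the results turn on, copied from RefSeq on GRCh38.p14. Of the 107 members 93 had an entry in that table. First come hairpins of MIR630 and MIR548AR, the pair of members the authors' deposited table puts at a q-value under 0.05, and of MIRLET7A2, the next in that order. Capitals mark the annotated mature strands.
MIR630 hairpin: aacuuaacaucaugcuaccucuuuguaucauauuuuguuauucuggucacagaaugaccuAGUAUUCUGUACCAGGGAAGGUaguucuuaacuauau
MIR548AR hairpin: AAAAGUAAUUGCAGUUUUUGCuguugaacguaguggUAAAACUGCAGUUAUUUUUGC
MIRLET7A2 hairpin: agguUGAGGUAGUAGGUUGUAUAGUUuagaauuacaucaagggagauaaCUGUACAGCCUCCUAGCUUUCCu

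Next come mature strands, 5′ to 3′, with the seed (bases 2 to 8) in capitals. The let-7 strands and miR-98 share 1 seed across 7 listed precursors.
hsa-let-7a-5p: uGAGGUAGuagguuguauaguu
hsa-let-7d-5p: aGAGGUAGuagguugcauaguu
hsa-let-7f-5p: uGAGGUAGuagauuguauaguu
hsa-let-7g-5p: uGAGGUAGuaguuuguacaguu
hsa-let-7i-5p: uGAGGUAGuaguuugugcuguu
hsa-miR-98-5p: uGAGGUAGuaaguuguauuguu

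The miR-99/100 and miR-125 families are shown because their genes sit beside let-7 genes.
hsa-miR-99a-5p: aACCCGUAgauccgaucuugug
hsa-miR-99b-5p: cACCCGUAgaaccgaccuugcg
hsa-miR-100-5p: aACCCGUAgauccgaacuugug
hsa-miR-125a-5p: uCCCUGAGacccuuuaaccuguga
hsa-miR-125b-5p: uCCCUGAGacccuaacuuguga

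The remaining strands are those whose precursors stood far apart (miR-221 and miR-222), close together (miR-27), all past 2-fold (miR-30) or at the top of the members' values (miR-320, miR-29a).
hsa-miR-221-3p: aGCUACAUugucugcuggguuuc
hsa-miR-222-3p: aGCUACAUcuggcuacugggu
hsa-miR-27a-3p: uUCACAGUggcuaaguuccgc
hsa-miR-27b-3p: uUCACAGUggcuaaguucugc
hsa-miR-30a-5p: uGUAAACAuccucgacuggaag
hsa-miR-30c-5p: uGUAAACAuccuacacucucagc
hsa-miR-320b: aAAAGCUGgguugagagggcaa
hsa-miR-320d: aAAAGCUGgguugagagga
hsa-miR-320e: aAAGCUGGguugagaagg
hsa-miR-29a-3p: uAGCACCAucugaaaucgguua

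Read numbers per library are unknown here, but the fold changes in the authors' deposited table fall on ratios of whole numbers. A pair was recovered for 96.3% of the 107 members, all but 4, and for 3535 of all 3576 RNAs. It is the smallest pair that gives the fold change, so the library may hold that many reads, or several times as many. Equal read numbers correspond to a fold of 1.10, the denominator library being the deeper one. Intervals below are exact (Clopper-Pearson) 95% intervals on the smallest pair. They cover counting error only, since PCR reads without molecular identifiers are not independent molecules. Neither side has a replicate, so no difference could be set against a spread between samples. The p-values in the authors' deposited table are likewise about 2 libraries, not about the doses. In such bulk libraries fewer cells of a kind and less RNA per cell cannot be told apart.

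More of these precursors were high than low in the numerator library, as was true of all RNAs. Larger shares than over all RNAs lay past 2-fold on both sides. Of the 107 members 68 had a log2 fold change above 0, or 63.6%, against 60.9% of all RNAs. At least 2-fold higher were 42 members (39.3%), against 16.3% of all RNAs. At least 2-fold lower were 11 members (10.3%), against 6.35% of all RNAs, and 54 members lay within 2-fold. The median log2 fold change was 0.57, against 0.16 over all RNAs, and the quartiles of the members were -0.19 and 1.72.

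The value taken as no change moves these counts. Relative to the median of all RNAs, 37 members were at least 2-fold higher (34.6%) and 14 lower (13.1%), against 13.1% and 8.19% of all RNAs. The members' median was then 0.41. Relative to the median of all microRNA precursors (0.40), 32 were higher and 18 lower, and the matching shares over all RNAs were not computed. The p-values in the authors' deposited table are not largest at 0: the 270 RNAs with p over 0.95 there have a median log2 fold change of -0.13.

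By their smallest pairs, most members rest on few reads. The median of the larger number in the smallest pair was 7 in the early-numbered precursors, against 35 over all RNAs. It reached 10 in 44 members, 20 in 16 and 50 in 2 (MIRLET7I and MIR630). In 26 members the denominator number was 1 and in 12 the numerator number was 1, with 3 members in both groups. The handling of genes with 0 reads is not described, and a 1 can stand for 0. Members with a 1 in the pair held 23 of the 42 values at least 2-fold higher and 6 of the 11 at least 2-fold lower. Of members with a 1, 65.7% were thus higher and 17.1% lower, against 50.5% and 18.5% of all RNAs with a 1. Among the 68 members whose pair has no 1, 15 were at least 2-fold higher (22.1%) and 5 lower (7.35%). Of all RNAs with such a pair 13.1% were higher and 5.26% lower. The median of these members was 0.16, against 0.17 over those RNAs.

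**Figure D1:**
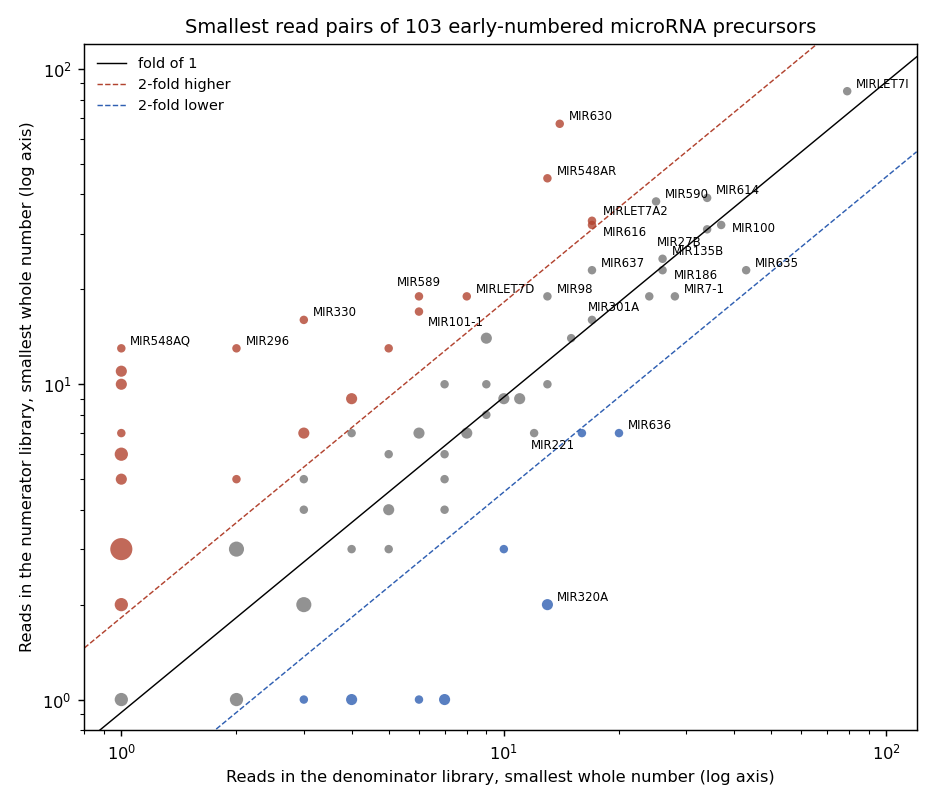
Smallest whole-number read pair of the members with a recovered pair, numerator library on the vertical and denominator library on the horizontal log axis. Point area grows with the number of members at the same pair, lines mark a fold of 1 and 2-fold differences after the depth ratio of 1.10, and red and blue points lie past them on the high and low side. MIR630 (67 against 14) and MIR548AR (45 against 13) stand above the upper line with more reads than any other member there.

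Among the 44 members with a smallest pair of 10 reads 28 lay above 0 (63.6%), against 60.7% of all RNAs with as many, 15 were at least 2-fold higher (34.1%), against 13.7%, and 5 were lower (11.4%), against 5.28%. Among the 16 members with 20 reads 10 lay above 0, against 61.6% of all RNAs with as many, and 6 below, against 38.4%. Of these 16 members 4 were at least 2-fold higher, against 11.2%, and 1 was lower, against 3.33%.

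The set was next placed beside the 195 late-numbered precursors, those with numbers of 1000 and above. Among the early-numbered precursors 39.3% were at least 2-fold higher and 10.3% lower, against 36.4% and 13.3% of the late-numbered ones. Their medians were 0.57 and 0.38. With a smallest pair of 10 reads the shares at least 2-fold higher were 34.1% of 44 early-numbered and 31.8% of 66 late-numbered precursors, against 13.0% of 2786 other non-coding RNAs. Under 10 reads they were 39.0% of 59 early-numbered precursors, 37.8% of 127 late-numbered precursors and 23.5% of 451 other RNAs. With 20 reads the median of the early-numbered precursors was 0.16, against 0.15 over 2293 other RNAs. No test of these differences could be made over samples, so nothing here is shown to be particular to the early numbers.

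**Figure D2:**
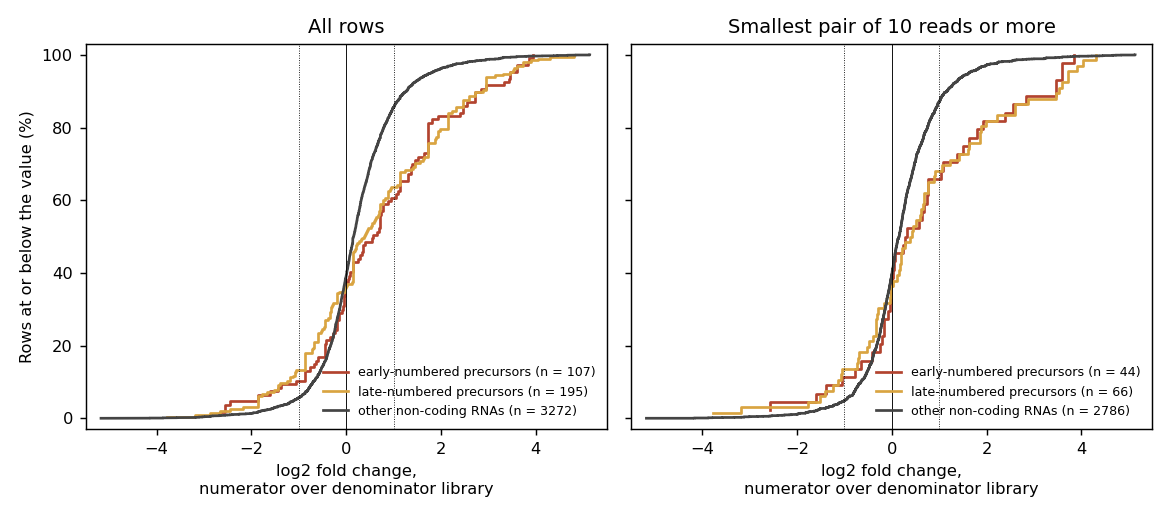
Cumulative share of rows (vertical axis, percent) by log2 fold change of the numerator over the denominator library (horizontal axis), for early-numbered precursors, late-numbered precursors and other non-coding RNAs. Dotted lines mark 2-fold differences. The curves of both sets of precursors run close together and spread wider than that of other RNAs, with 42 of 107 early-numbered precursors to the right of the upper dotted line over all rows and 15 of 44 among rows with 10 reads.

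The limit in the numbering fell between unlike values on both sides. Just below 1000 lie MIR943 (log2 fold change 1.72), MIR942 (2.72), MIR933 (-0.86), MIR921 (2.94) and MIR765 (0.14). Just above it lie MIR1178 (0.62), MIR1180 (3.72), MIR1204 (2.88), MIR1205 (3.72) and MIR1206 (3.59). Within the set, let-7 and numbers below 100 had a median of 0.70 over 22 members, numbers from 100 to under 500 had 0.36 over 39, and numbers from 500 up had 0.65 over 46. The counts at least 2-fold higher and lower were 9 and 1, 15 and 4, and 18 and 6 in these 3 bands.

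A q under 0.05 stands beside 2 members in the authors' deposited table. This is 1.87% of the members, against 2.56% of the late-numbered precursors and 0.839% of all RNAs. MIR630 (NR_030359.1) had at least 67 reads in the numerator library against 14 in the denominator library, a ratio of 5.26 (95% interval 2.93 to 10.1), with p = 1.51e-05 and q = 0.00599 in the authors' deposited table. The microRNA has been described in apoptosis after DNA damage, and its hairpin overlaps an exon of ARIH1, which encodes a ubiquitin ligase. Reads of spliced ARIH1 RNA may be among those counted. MIR548AR (NR_049839.1) had at least 45 reads against 13, a ratio of 3.80 (2.02 to 7.68), with p = 4.31e-05 and q = 0.0143 in the authors' deposited table. It belongs to a primate-specific family that arose from a transposable element and lies in an intron of CDC16, a subunit of the anaphase-promoting complex. Of the others, 101 have q = 1 there and 4 lie between 0.426 and 0.881.

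MIRLET7A2 (NR_029477.1) has p = 0.00241 and q = 0.426 in the authors' deposited table, with at least 33 reads against 17. At p under 0.05 the authors' deposited table holds 18 members (16.8%), against 14.9% of the late-numbered precursors and 3.80% of all RNAs. All 18 are higher in the numerator library, as are 27 of the 29 late-numbered precursors with such a p. Of all RNAs with such a p, 110 of 136 are higher. These p-values do not follow the pair alone. A smallest pair of 3 against 1 is shared by 9 members. Their p-values in the authors' deposited table run from 0.156 to 0.478, and MIR29A and MIR320B2, both at 10 against 1, have p = 0.0151 and p = 0.0979.

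The counting interval lay wholly above a fold of 1 in 14 members (13.6% of those with a pair), against 21.4% of all RNAs with a pair. It lay wholly below 1 in 4 members (3.88%), against 7.72%. With a smallest pair of 10 reads the shares were 31.8% above and 9.09% below in the members, against 25.4% and 9.35% of all RNAs. The late-numbered precursors had the same shares with 10 reads, 31.8% and 9.09%, and over all pairs 13% above and 3.11% below.

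Among members with a smallest pair of 10 reads, MIR548AQ had the highest ratio, 14.3-fold (2.14 to 607), from 13 reads against 1. It lies in an intron of IGF2BP2, which encodes an mRNA-binding protein. MIR548V, inside MTUS1, and MIR648, inside MICAL3, followed at 12.1-fold (1.76 to 520), from 11 against 1. MIR29A and MIR320B2 stood at 11.0-fold (1.56 to 477). miR-29a is known to repress collagens and the survival factor MCL1. The denominator number is 1 in these 5 members, and their intervals are accordingly wide.

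The next ones rest on more reads in the denominator library. MIR296, from the imprinted GNAS locus, was 7.14-fold higher (1.62 to 65.2), from 13 reads against 2. MIR330, overlapping an exon of EML2, was 5.86-fold higher (1.68 to 31.4), from 16 against 3. MIR589, in an intron of FBXL18, was 3.48-fold higher (1.34 to 10.6), from 19 against 6. MIR101-1, a precursor of the microRNA known to repress the chromatin enzyme EZH2, was 3.11-fold higher (1.17 to 9.64), from 17 against 6. MIR616, in an intron of the stress transcription factor gene DDIT3, was 2.07-fold higher (1.11 to 3.97), from 32 against 17. All 5 intervals lie above 1, and their p-values in the authors' deposited table run from 0.0224 to 0.077, with q = 1 for each.

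The 4 members with no recovered pair were all at least 2-fold higher, whereas of the 41 RNAs of all kinds with no pair 51.2% lay above 0 and 19.5% were at least 2-fold higher. Their log2 fold changes in the authors' deposited table are 3.93 for MIR556, 3.85 for MIR491, 3.43 for MIR548N and 3.33 for MIR320D1. No counting interval can be given for these 4.

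On the low side 5 members reached 10 reads in 1 library and were at least 2-fold lower in the numerator library. MIR320A and MIR544B stood at 0.169-fold (0.0185 to 0.746), each from 2 reads in the numerator against 13 in the denominator library. MIR544B lies in an intron of UMPS, an enzyme of pyrimidine synthesis. MIR152, inside COPZ2 and known to target the DNA methyltransferase DNMT1, stood at 0.330-fold (0.0583 to 1.28). MIR636, overlapping an exon of the splicing factor gene SRSF2, stood at 0.384-fold (0.137 to 0.946), from 7 against 20. MIR221 stood at 0.481-fold (0.167 to 1.23), from 7 against 16. The intervals of MIR152 and MIR221 include 1, and all 5 have p of 0.0591 or more in the authors' deposited table.

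The lowest values of all, a log2 fold change of -2.67, were those of MIR132, a microRNA studied in neurons, and MIR550A1, each from 1 read against 7. MIR760 stood at -2.45, MIR24-1 and MIR548AM at -1.86 and MIR579 at -1.45, all with a numerator of 1. MIR635, in an intron of the autophagy gene WIPI1, stood at 0.588-fold (0.338 to 0.997), from 23 against 43.

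**Figure D3:**
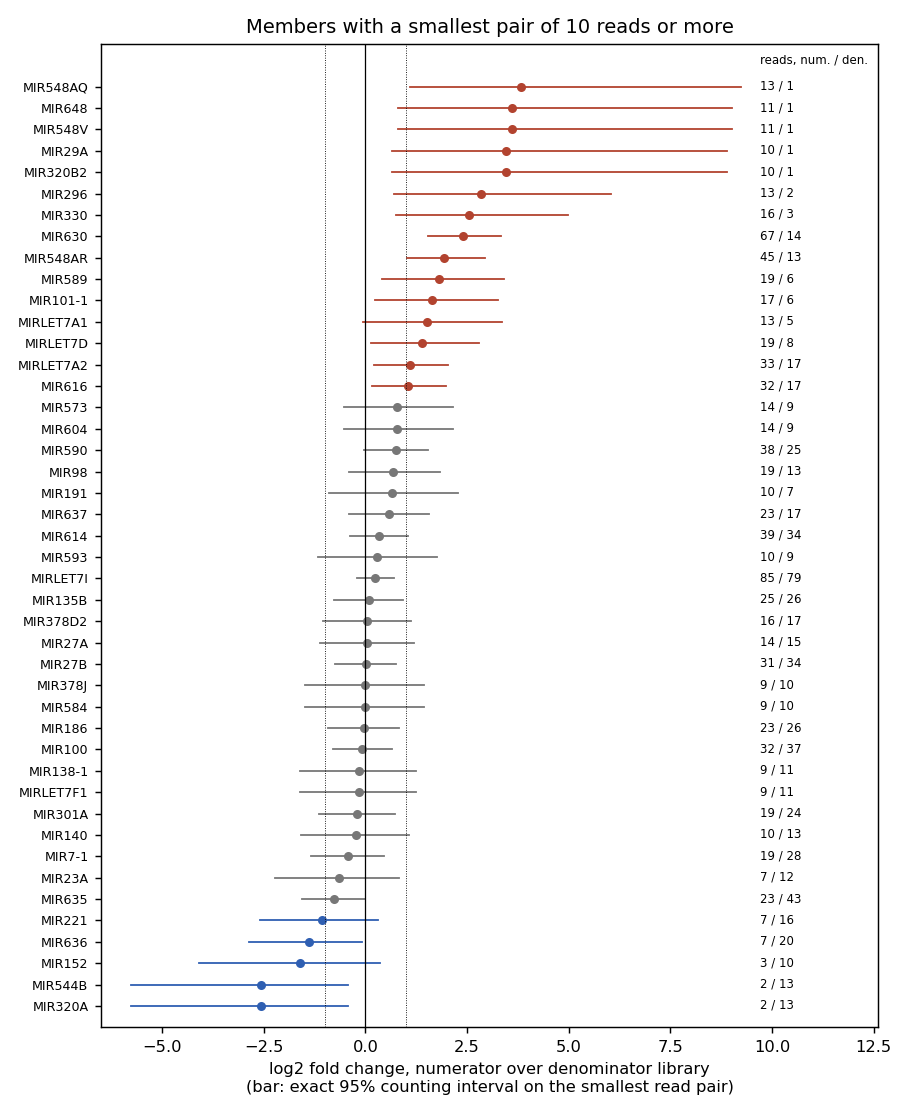
Log2 fold change of the numerator over the denominator library (horizontal axis) for the 44 members with a smallest pair of 10 reads in at least 1 library, with exact 95% counting intervals as bars. Numbers at the right give the smallest read pair, numerator first, and dotted lines mark 2-fold differences. Of the 44 members 15 lie at or above the upper dotted line and 5 at or below the lower one, and the bars shorten as reads increase.

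Several of the best counted members differed by less than their counting error. MIRLET7I, with at least 85 reads against 79, stood at 1.18-fold (0.860 to 1.63), and it turns slightly below 0 relative to the median of all microRNA precursors. MIR614, overlapping an exon of GPRC5A, stood at 1.26-fold (0.775 to 2.06), from 39 against 34, and also falls below that median. MIR590, in an intron of the translation factor gene EIF4H, stood at 1.67-fold (0.982 to 2.89). MIR100, from 32 reads against 37, had an interval of 0.573 to 1.57, MIR27B, from 31 against 34, had one of 0.595 to 1.68, and MIR135B stood at 1.06-fold (0.585 to 1.90). MIR186, in ZRANB2, stood at 0.972-fold (0.530 to 1.77) and MIR7-1, overlapping an exon of HNRNPK, at 0.745-fold (0.393 to 1.38). These 8 intervals all include 1.

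The let-7 family, whose mature strands repress RAS genes and HMGA2, had 7 precursors listed with miR-98. Of these 6 had a log2 fold change above 0, or 5 relative to the median of all microRNA precursors, against 60.9% of all RNAs. At least 2-fold higher were 3, or 1 relative to that median, against 16.3% of all RNAs and 37.2% of all microRNA precursors. The median of the 7 was 0.94. MIRLET7A1 was 2.86-fold higher (0.955 to 10.2), from 13 reads against 5, and MIRLET7D 2.61-fold higher (1.09 to 6.89), from 19 against 8. MIRLET7A2 was 2.13-fold higher (1.15 to 4.08).

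MIRLET7G, in an intron of WDR82, stood at 1.92-fold (0.489 to 8.95) and MIR98, in an intron of the ubiquitin ligase gene HUWE1, at 1.61-fold (0.752 to 3.54). MIRLET7F1 was the only one below 0, at 0.899-fold (0.329 to 2.39), from 9 reads against 11. All 7 intervals share common values, so the precursors do not separate by counting error. MIRLET7A1 and MIRLET7A2 yield the same let-7a strand and stood at 1.51 and 1.09 on the log2 scale.

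Apart from MIR100, the families beside let-7 genes had low numbers in their smallest pairs. MIR99B stood at 5.49-fold (0.615 to 260), from 5 reads against 1, and MIR99A at 2.20-fold (0.114 to 130), from 2 against 1, while MIR100, with the same seed and the most reads, stood near 1. MIR125A stood at 2.75-fold (0.450 to 28.8) and MIR125B1 at 2.47-fold (0.690 to 11.0). All 3 miR-30 precursors were at least 2-fold higher, against 16.3% of all RNAs and 37.2% of all microRNA precursors. MIR30C1 stood at 6.59-fold (0.800 to 303), MIR30B at 2.56-fold (0.585 to 15.4) and MIR30A at 2.47-fold (0.690 to 11.0). The intervals of all these members include 1, and MIR99A, MIR30A, MIR30B and MIR125B1 drop under 2-fold relative to the median of all microRNA precursors.

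The miR-320 family was the only one of 10 name families in the set whose counting intervals had no value in common. MIR320B2, at 11.0-fold (1.56 to 477), and MIR320A, at 0.169-fold (0.0185 to 0.746), stood on opposite sides. MIR320E stood at 5.49-fold (0.615 to 260). The 4 precursors spanned 6.02 on the log2 scale. The seeds printed above for miR-320b and miR-320d are the same, whereas that of miR-320e is shifted by its shorter 5′ end. Near-identical copies can share reads, and the counting of such reads is not given, so the values of this family and of miR-548 are uncertain.

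The miR-548 family had 6 precursors, 5 of them at least 2-fold higher, against 16.3% of all RNAs and 37.2% of all microRNA precursors. MIR548AM was lower, at 0.275-fold (0.00558 to 2.77), from 1 read against 4. At least 2-fold lower were 6.35% of all RNAs and 12.8% of all microRNA precursors. MIR548O2 stood at 3.30-fold (0.265 to 173), from 3 against 1. The median of the 6 was 2.68 on the log2 scale. They lie in introns of 6 different genes, which are IGF2BP2, MTUS1, DPY19L1, CDC16, RALGAPB and CTPS2.

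MIR221 and MIR222 are neighbours on the X chromosome, share a seed and are known in melanoma for repressing KIT and the cell-cycle inhibitor CDKN1B. They stood on opposite sides, MIR222 at 3.30-fold (0.265 to 173) from 3 reads against 1 and MIR221 at 0.481-fold. Their intervals overlap. MIR27A stood at 1.03-fold (0.458 to 2.28) and MIR27B, with the same seed, lay within 0.034 of it on the log2 scale, and both turn below 0 under each other value taken as no change. MIR378D2 and MIR378J likewise lay within 0.065 of each other. MIR130B and MIR301A, which share a seed, lay at -0.057 and -0.20, and MIR103A1 and MIR103A2, which yield the same strand, at 0.87 and -0.087.

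**Figure D4:**
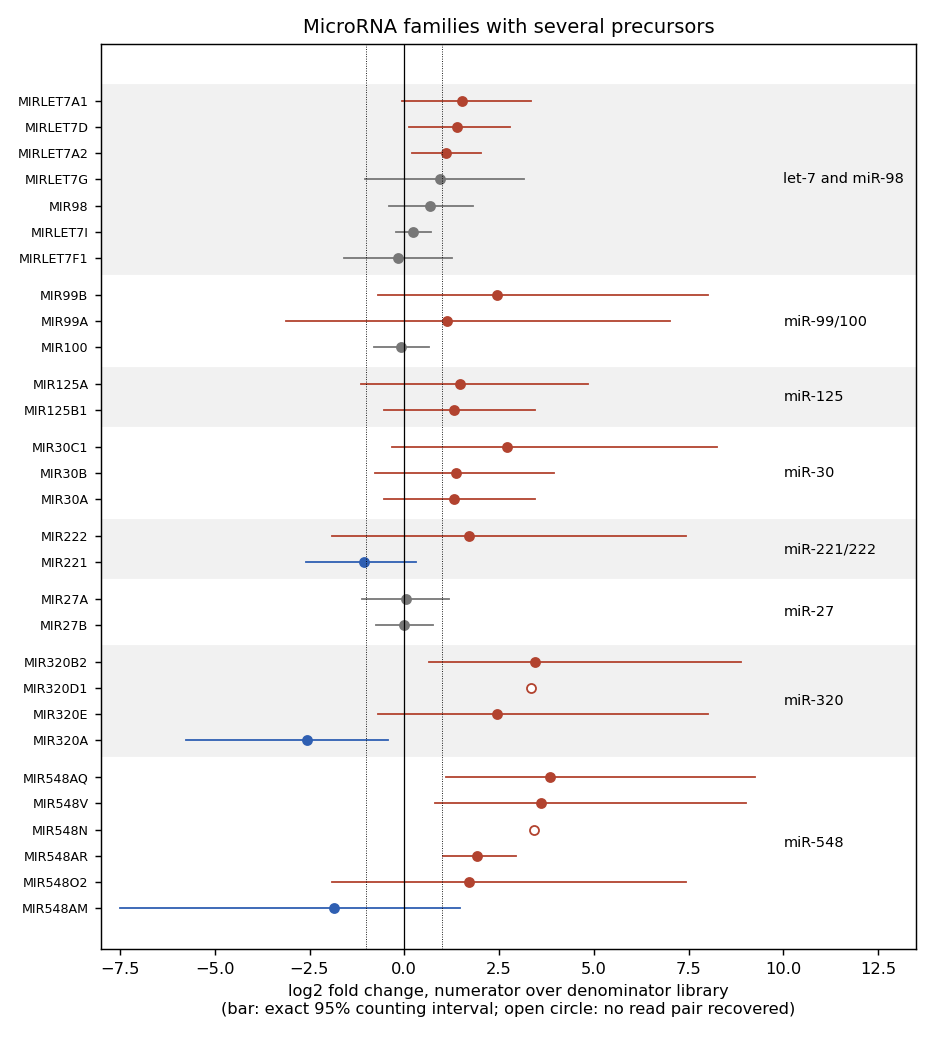
Log2 fold change of the numerator over the denominator library (horizontal axis) for the precursors of 8 microRNA families, with exact 95% counting intervals as bars; open circles have no recovered pair and no interval. The bars of MIR320B2 and MIR320A do not overlap, while the 7 precursors of let-7 and miR-98 share a range.

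Of the fixed lists, that of p53-linked microRNAs had 5 of 23 names among the rows, 3 at least 2-fold higher (MIR29A, MIR630 and MIR125B1) and 1 at least 2-fold lower (MIR760), against 16.3% and 6.35% of all RNAs and 37.2% and 12.8% of all microRNA precursors. Relative to the median of all microRNA precursors 2 were higher and 1 lower. MIR15A, whose mature strand represses BCL2, stood at 0.732-fold (0.0612 to 6.39), from 2 reads against 3. The median of the 5 was 1.31, against 0.16 over all RNAs. The other 18 names are not analysed here. The list was chosen with earlier results of these data known, so its median is a description and gives no support to a direction.

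The melanoma list had 7 of 36 names among the rows, 3 past 2-fold on the high side (MIR222, MIR196A2 and MIR30B) and 2 on the low side (MIR221 and MIR579), with a median of 0.77. Of all RNAs 16.3% lay past 2-fold on the high and 6.35% on the low side, and of all microRNA precursors 37.2% and 12.8%. Relative to the median of all microRNA precursors 2 of the 7 were higher and 3 lower. MIR196A2, in the HOXC cluster, stood at 3.30-fold from 3 reads against 1 and MIR573 at 1.71-fold (0.689 to 4.48), from 14 against 9. MIR193A stood at 0.659-fold (0.102 to 3.39). Of the 7 intervals none excludes 1.

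The DNA-damage and repair list had 7 of 20 names among the rows, 3 at least 2-fold higher (MIR99B, MIR101-1 and MIR99A) and 1 at least 2-fold lower (MIR24-1), against 16.3% and 6.35% of all RNAs and 37.2% and 12.8% of all microRNA precursors. MIR99A drops under 2-fold relative to the median of all RNAs. The median of the 7 was 0.36. MIR421, a repressor of the kinase gene ATM, stood at 1.28-fold (0.369 to 4.62), and it turns below 0 relative to the median of all microRNA precursors. MIR138-1 stood at 0.899-fold (0.329 to 2.39).

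The hypoxia and stress list had 8 of 19 names among the rows, 4 above and 4 below 0, with a median of -0.042. MIR27A and MIR27B turn below 0 under each other value of no change. At least 2-fold lower was 1 member, MIR24-1, against 6.35% of all RNAs and 12.8% of all microRNA precursors. At least 2-fold higher were 0, against 16.3% and 37.2%. Relative to the median of all microRNA precursors 3 were lower and 0 higher. MIR181B1 stood at 1.46-fold, from 4 reads against 3, MIR23A at 0.641-fold (0.214 to 1.77) and MIR26B, in an intron of CTDSP1, at 0.628-fold (0.135 to 2.47). From the epithelial and invasion list 1 of 16 names was among the rows, MIR10A at 1.65-fold (0.189 to 19.7), from 3 reads against 2. None of 21 names of the cell-cycle list and none of 35 names that mark blood, endothelium, fibroblasts, muscle, liver, neurons or keratinocytes was among the rows analysed.

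Position was read from GENCODE 29, which holds all 107 members. Of these 95 lie inside another gene on its strand, 77 in introns and 18 overlapping an exon, 3 lie only antisense to a gene and 9 outside other genes. The median log2 fold change was 0.72 in introns and 0.23 over exons. At least 2-fold higher were 32 of 77 (41.6%) in introns and 5 of 18 (27.8%) over exons, against 16.3% of all RNAs. In the late-numbered precursors these shares were much the same, 39.2% in introns and 28.3% over exons. The median was -0.15 over the 9 early-numbered precursors outside other genes, with 3 higher and 2 lower. For the late-numbered precursors the medians were 0.44 over 120 in introns, 0.23 over 46 overlapping exons and 0.51 over 15 outside other genes. Of these 15, 5 were higher and 0 lower. The medians outside genes thus lay on opposite sides of 0, but single values lay on both sides in each set. Above 0 were 4 of the 9 early-numbered and 12 of the 15 late-numbered precursors outside genes. Members inside protein-coding genes had a median of 0.46 over 70, and those inside non-coding genes 0.72 over 25. The larger number of the pair had a median of 7 in introns and 12.5 over exons, and its part in this difference was not tested.

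For 4 hosts the non-coding transcript was itself listed, which gives the value of the host from far more reads. FTX, a lncRNA of the X-inactivation centre, had at least 91 reads against 64, a ratio of 1.56 (1.12 to 2.19), and its precursors MIR374A, MIR374B and MIR421 stood at 1.65-fold, 2.20-fold and 1.28-fold. MIR181A1HG was 1.72-fold higher (1.31 to 2.26) and MIR181B1 inside it stood at 1.46-fold. MIR193BHG stood at 1.73-fold (0.945 to 3.26) and MIR365A at 3.30-fold (0.265 to 173). DLEU2, from 264 reads against 305, had an interval of 0.803 to 1.12, and MIR15A stood at 0.732-fold. In each of these 6 pairs the precursor lay on the same side of 0 as its host. The 6 pairs come from only 4 hosts, and the intervals of DLEU2 and MIR193BHG include 1. The interval of every precursor includes the value of its host, but these intervals are so wide that this could hardly fail. Whether precursor and host go together was not tested. MIR421 and the direction of its host part when the median of all microRNA precursors is subtracted.

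Precursors close together on 1 strand are often cut from the same primary transcript, and these could be compared with each other. Within 10 kb of each other on the same strand lay 19 members in 9 groups. In 7 of the 9 groups the values lay on both sides of 0, and in all 9 the counting intervals shared a value. The groups of MIR27A and of MIR27B lie wholly below 0 under each other value taken as no change, and that of MIR421 and MIR374B lies on both sides relative to the median of all microRNA precursors. The widest gap was between MIR296 at 2.84 and MIR298 at -0.35 on the log2 scale. MIR27B and MIR24-1, beside each other in C9orf3, stood at 0.0021 and -1.86, and MIR27A and MIR23A at 0.036 and -0.64. In MIR100HG, MIRLET7A2 stood at 1.09 and MIR100 at -0.074, from 33 reads against 17 and 32 against 37. MIR99B and MIR125A were both at least 2-fold higher.

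**Figure D5:**
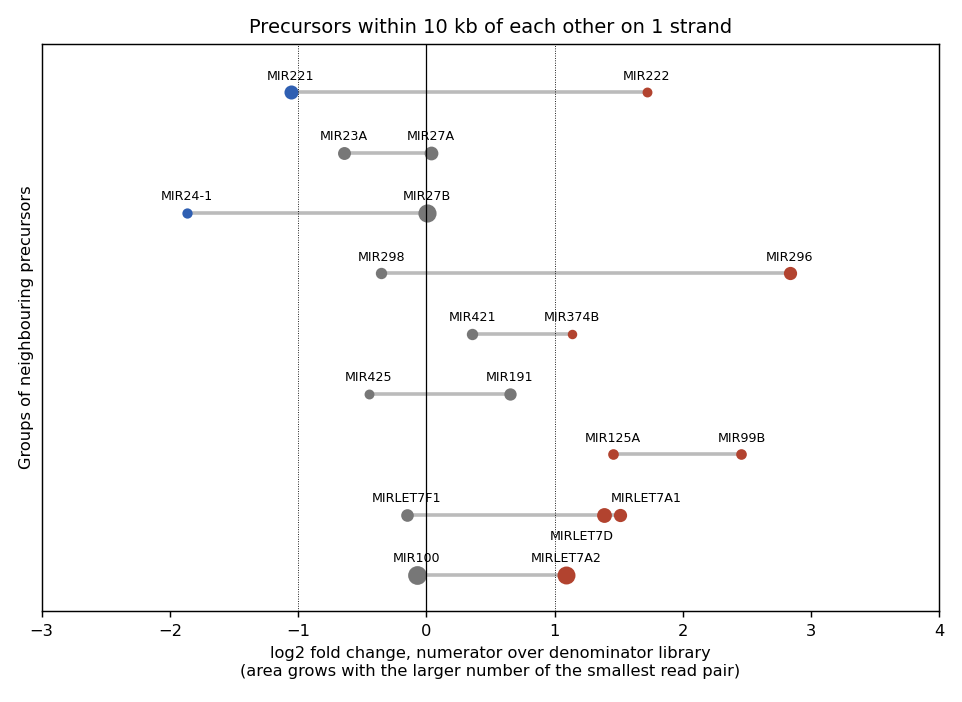
Log2 fold change of the numerator over the denominator library (horizontal axis) for 19 members in 9 groups of neighbours within 10 kb on 1 strand, 1 group per line. Point area grows with the larger number of the smallest read pair, and dotted lines mark 2-fold differences. In 7 of the 9 groups the grey line that joins the members crosses 0, though those of MIR27A and MIR27B no longer cross it under each other value taken as no change.

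The hairpins themselves differed little between the groups of members. Their length had a median of 86.5 bases in 36 members at least 2-fold higher, 92 bases in 8 members at least 2-fold lower and 94 bases in 49 members within 2-fold. The GC content had medians of 49.5%, 50.2% and 52.0% in the same groups, within a range of 27.4% (MIR556) to 85.5% (MIR762) over all.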

How the data were processed

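The 2 samples are A375 cells after 8 Gy and at 0 Gy; TransZol was the extraction reagent and an mRNA-Seq kit made the libraries, per the labels' protocols. The labels give no time after irradiation. In the submitters' processing notes the 1 build named is of the mouse, mm 10, although the identifiers are human; no coordinates are printed. Aligner, counting, strand setting and test: not given in the sources used here.

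For each RNA the authors deposited the log2 of a fold change beside its p-value and q-value, per the file headers. A further 2 columns of per-sample values match neither sample's labels and were not used, so depth per library is unknown.

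The most frequent log2 fold change, 0.14 (66 RNAs), was taken as equal read numbers. The smallest whole-number pair up to 3000 that gives each value within a relative tolerance of 1.5e-09 was then searched, as tested on simulated data. Host genes and neighbours came from GENCODE 29, sequences from RefSeq (93 members matched).

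No test across samples was possible. The members, the fold threshold of 2, the 8 lists and the naming rule were chosen with earlier results of these data known. That rule names members with q under 0.05, without a pair, on a list, among the 10 largest pairs, or among the 12 highest or 12 lowest with 10 reads; others are examples chosen after their values were seen. Alternatives were other values of no change, read minimums, a 4-fold threshold, numbers below 500, taking neighbours within 10 kb as 1 value, and leaving out precursors inside genes. Tools were scipy 1.17.1, matplotlib 3.10.9, pandas 2.3.3 and numpy 2.4.6 under Python 3.11.15.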

Additional observations from a re-analysis of the deposited data

How the results depend on the processing

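Subtracting the median of all RNAs, the median of all microRNA precursors or the value of equal read numbers kept the median of the members above 0, between 0.17 and 0.44, and every other alternative kept it between 0.16 and 0.57. The counts above 0, past 2-fold higher and past 2-fold lower (68, 42 and 11) became 28, 15 and 5 with a smallest pair of 10 reads, 10, 4 and 1 with 20 reads, and 38, 15 and 5 without missing pairs or a 1. They became 6, 5 and 3 outside genes on the same strand and 38, 24 and 5 with numbers below 500. These settings keep fewer members, and some shares move too. Without missing pairs or a 1, 22.1% were at least 2-fold higher, against 13.1% of all RNAs under the same filter. Outside genes 3 of 12 were lower. A 4-fold threshold left 18 higher and 5 lower, and subtracting the median of all microRNA precursors gave 18 lower.

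The median of the melanoma list turned to -0.14 with a smallest pair of 10 reads (2 members). That of the hypoxia and stress list turned to 0.0021 with 10 reads, with 20 reads and without missing pairs or a 1. That of the DNA-damage list turned to -0.041 relative to all microRNA precursors and to -0.074 with 10 or 20 reads. The 1 member of the epithelial list stood at 0.56, 0.32 and 0.59 under the 3 subtractions. Of 242 alternative values in all, 171 values of single members stayed within their counting interval or, with no pair, moved by the size of the subtraction alone; 5 of these members changed sign under a subtraction. No paired analysis was possible because each dose has a single library. The number of reads may limit most members: if the reads are no more than the smallest pair, 3 against 1 allows any fold between 0.265 and 173. More reads at the same ratio would narrow that range.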
